A study of Homo sapiens with 3 samples.

Results

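Histone chaperones escort newly made histones to DNA and help to assemble, take apart and rebuild nucleosomes, the units in which DNA is wrapped around histone proteins. The study profiled gene expression in cells exposed to the flame retardant decabromodiphenyl ether (BDE-209), and the transcripts of 10 such factors, given by a list of RefSeq identifiers, are described here. All 10 had a value in every sample, out of 25443 RefSeq transcripts with a value in at least 1 sample. The cells were HEK293T, derived from human embryonic kidney and expressing the large T antigen of SV40 (HEK 293 in the sample labels), and the series has 3 samples. The first was kept in medium with 1e-06 M BDE-209 dissolved in 1e-03 M dimethyl sulfoxide (DMSO), the second in medium with 1e-03 M DMSO, and the third, the negative control, in medium free of BDE-209 and of DMSO, each for 48 h. The control is described so by the treatment protocol, whereas its own treatment label can also be read as BDE-209 in medium without DMSO, so the control comparisons rest on the protocol. With 1 sample per condition there was no replicate check of any difference, and the errors given are counting errors.

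The factors divide by the histones they carry and by when they act. Chromatin assembly factor 1 (CAF-1) deposits H3 and H4 histones behind the replication fork and is built from a large subunit (CHAF1A), a middle subunit (CHAF1B) and the WD-repeat protein RBBP4, which also sits in several deacetylase and Polycomb complexes. The paralogs ASF1A and ASF1B hand H3 and H4 to CAF-1 and to HIRA, and NASP keeps a soluble reserve of these histones. HIRA deposits the replacement variant of H3 outside replication. FACT, made of SUPT16H and SSRP1, moves H2A and H2B dimers in and out of nucleosomes during transcription and replication, and NAP1L1 is a carrier of the same dimers.

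Depth was alike in the 3 samples, and markers of the line were read in each. The values are RPKM, that is, reads scaled to the length of the transcript in kilobases and to a read total of the library. The read totals recovered from their steps were 4843625 in the control, 4782042 in DMSO and 4676793 in BDE-209, so that 1 read on a transcript of 1 kb corresponded to 0.2065, 0.2091 and 0.2138 RPKM. These totals lie below the uniquely mapped reads that the study lists for each sample, which also put BDE-209 above DMSO. What the recovered totals count is not known here. The intermediate filament genes VIM (299, 296 and 261 RPKM in control, DMSO and BDE-209) and NEFM (49.8, 52.9 and 54.1 RPKM) and the keratin gene KRT18 (48.1, 43.6 and 40.7 RPKM) were well covered. VIM was lowest in BDE-209, with 2626 reads against 3043 in DMSO and 3116 in the control, a gap that is not examined here. NEFL had 26.7, 27.9 and 24.4 RPKM, and KRT8 was lower, with 6.19, 6.38 and 5.93 RPKM. Of the renal progenitor genes, LHX1 had 23, 15 and 23 reads and PAX2 had no value in any sample. The leukocyte genes PTPRC and CD3E, the erythroid gene HBB and the beta cell gene INS had no value either, the liver gene ALB had 1 read in each sample, and the endothelial gene PECAM1 had 8, 8 and 14 reads.

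Before the levels are read, the genes' copies elsewhere in the genome have to be seen, because the authors kept uniquely mapped reads only. The reference transcript of each gene (GENCODE 44 lifted to GRCh37, the assembly also called hg19) was cut into all windows of 49 bases, the length of a read, and each window was looked for on either strand of the whole genome with at most 2 mismatches. Of the RBBP4 coding windows, 96.1% were found at another locus, and 36.9% were found there without a mismatch. The share was 82.3% for NAP1L1, 57.9% for NASP, 57.7% for SUPT16H and 15.7% for CHAF1B, and it was 0% for CHAF1A, ASF1A, ASF1B, HIRA and SSRP1. No coding window of ASF1A was therefore found in ASF1B, or the reverse. The other loci of RBBP4 with the most windows were the processed pseudogenes RBBP4P1 (1722 windows, coding or not), RBBP4P2 (910) and RBBP4P5 (877). Those of SUPT16H lay in SUPT16HP1 (2449 windows), and those of NASP in NASPP1 (1688 windows). NAP1L1 windows were found in several processed copies, among them NAP1L1P3 (707 windows) and NAP1L1P1 (422 windows).

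A coding window of RBBP4 with matches at several other loci, though not necessarily at the most, shows how close these copies can be. It lies inside an exon at chr1:33117577-33117625 of GRCh37, on the plus strand, and is shown with its match in each of 5 processed pseudogenes. All are written 5′ to 3′ along the RBBP4 strand, in lower case, with the bases that differ from RBBP4 in capitals.
RBBP4: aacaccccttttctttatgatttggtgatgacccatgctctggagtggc
RBBP4P1: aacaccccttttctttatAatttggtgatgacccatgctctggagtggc
RBBP4P4: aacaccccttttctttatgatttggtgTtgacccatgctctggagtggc
RBBP4P3: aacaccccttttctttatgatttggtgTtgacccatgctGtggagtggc
RBBP4P5: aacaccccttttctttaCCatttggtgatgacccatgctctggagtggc
RBBP4P2: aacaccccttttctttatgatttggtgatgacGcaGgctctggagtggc
RBBP4P1 and RBBP4P4 differ from RBBP4 at 1 base of this read-length stretch, and RBBP4P3, RBBP4P5 and RBBP4P2 at 2 bases. The matches lie at chr5:14798383-14798431 for RBBP4P1, chr6:58447181-58447229 for RBBP4P4, chr6:57842264-57842312 for RBBP4P3, chr14:22032027-22032075 for RBBP4P5 and chr3:93795892-93795940 for RBBP4P2, with RBBP4P5 on the plus strand and the others on the minus strand.

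**Figure D1:**
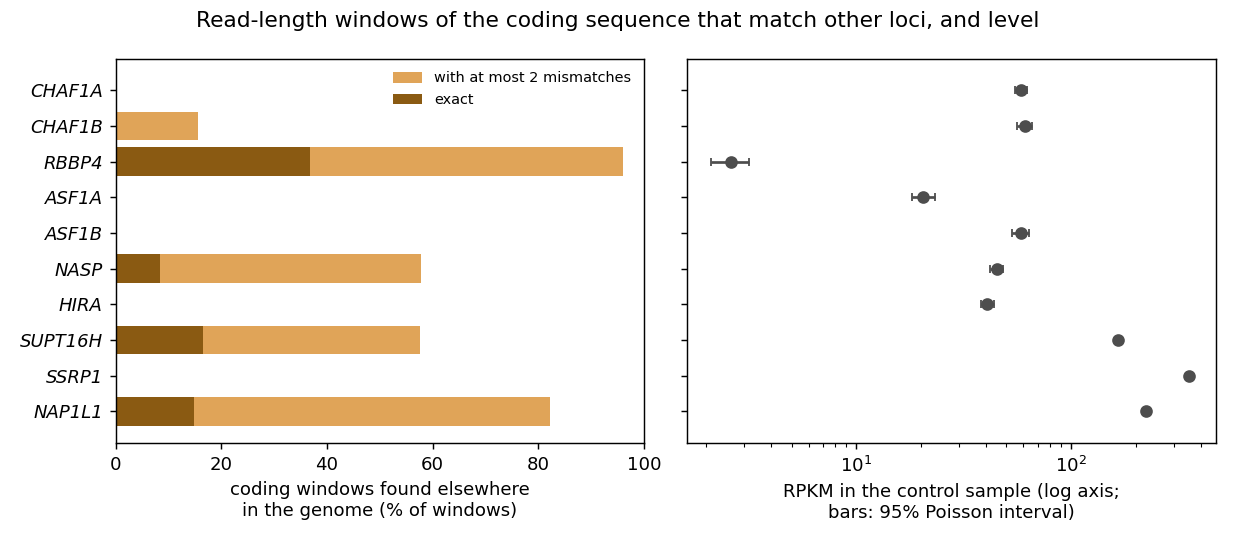
Left, the percentage of 49-base coding windows of each gene that were found at another locus of GRCh37, without a mismatch (dark) or with at most 2 (light). Right, the RPKM of the same gene in the control sample on a log axis, with the 95% Poisson interval of its reads. RBBP4, with 96.1% of its coding windows found elsewhere, is listed at 2.6 RPKM, and SSRP1, with 0%, at 353 RPKM, but NAP1L1 with 82.3% is listed at 222 RPKM. RPKM counts the whole transcript, and over all windows, coding or not, these shares were 34.5% for RBBP4 and 20.3% for NAP1L1.

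Among the CAF-1 subunits, CHAF1A and CHAF1B were listed at nearly equal levels and RBBP4 far below them. CHAF1A (NM_005483, chromosome 19, 4402637 to 4443394, plus strand, 15 exons) had 58.3 RPKM in the control, 53.4 in DMSO and 54.2 in BDE-209, from 945, 854 and 847 reads. CHAF1B (NM_005441, chromosome 21, 37757690 to 37791313, plus strand, 14 exons) had 60.7, 64.4 and 56.8 RPKM in the same order, from 675, 707 and 610 reads. CHAF1A was highest in the control and CHAF1B in DMSO, with CHAF1B lowest in BDE-209. RBBP4 (NM_005610, chromosome 1, 33116809 to 33151812, plus strand, 12 exons) had 2.6, 2.87 and 2.53 RPKM from 100, 109 and 94 reads. Its value in the control was higher than that of 18.2% of the 15573 transcripts with a mean of at least 1 RPKM over the samples, against 89.9% for CHAF1A. The part of the pseudogene copies in the low RBBP4 value was not tested. Its paralog RBBP7, a WD-repeat protein found in related complexes, was listed at 185, 193 and 189 RPKM. Since these are bulk samples, fewer cells with a transcript and less of it per cell cannot be told apart, here or below.

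By RPKM, ASF1B was the highest of ASF1A, ASF1B, NASP and HIRA. It (NM_018154, chromosome 19, 14230324 to 14247401, minus strand, 4 exons) had 58.3 RPKM in the control, 60.4 in DMSO and 61.0 in BDE-209, a range of 1.05-fold. ASF1A (NM_014034, chromosome 6, 119215316 to 119230336, plus strand, 4 exons) had 20.5, 22.5 and 21.8 RPKM. In every sample the ASF1B transcript was thus the more abundant of the paralogs per length. NASP (NM_002482, chromosome 1, 46049713 to 46084565, plus strand, 15 exons) had 45.0, 51.2 and 48.1 RPKM, with the highest value in DMSO and the lowest in the control. HIRA (NM_003325, chromosome 22, 19318221 to 19419256, minus strand, 25 exons) had 40.7, 38.8 and 39.2 RPKM.

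FACT and NAP1L1, the carriers of H2A and H2B, were the most abundant of the factors. SSRP1 (NM_003146, chromosome 11, 57093462 to 57103366, minus strand, 17 exons) had 353, 352 and 341 RPKM in control, DMSO and BDE-209, above 98.9% of the transcripts with a mean of at least 1 RPKM. NAP1L1 (NM_004537, chromosome 12, 76430365 to 76478465, minus strand, 15 exons) had 222, 219 and 219 RPKM. SUPT16H (NM_007192, chromosome 14, 21819635 to 21852178, minus strand, 26 exons) had 166, 171 and 169 RPKM. With 3708 to 5513 reads in each sample, these were also the factors whose values had the smallest counting error.

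By RPKM, the order of the levels was the same in the 3 samples at its ends and not in the middle. In all 3 samples SSRP1 came first, followed by NAP1L1 and SUPT16H, and HIRA, ASF1A and RBBP4 came last in that order. The 95% Poisson intervals of the reads did not overlap between SSRP1 and NAP1L1, between NAP1L1 and SUPT16H, between HIRA and ASF1A, or between ASF1A and RBBP4, in any sample. The interval of SUPT16H also lay above that of the next transcript in each sample. Among CHAF1A, CHAF1B and ASF1B each overlapped with its neighbour in the order, which changed from sample to sample. Only in DMSO did a pair of them stand apart, with 59.7 to 69.3 RPKM for CHAF1B and 49.9 to 57.1 RPKM for CHAF1A. NASP came just before HIRA in every sample, with an interval that overlapped that of HIRA in the control and that of CHAF1A in DMSO and BDE-209. The place of NASP depended on how length is counted. Among the 8 factors whose recovered length lay within 10% of the reference, NASP ranked 5 by RPKM in each sample and 3 by reads per window found only at its own locus. On that scale it had 619, 696 and 638 reads per 1000 windows in control, DMSO and BDE-209, against 326, 333 and 329 for ASF1B and 260, 244 and 241 for HIRA.

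**Figure D2:**
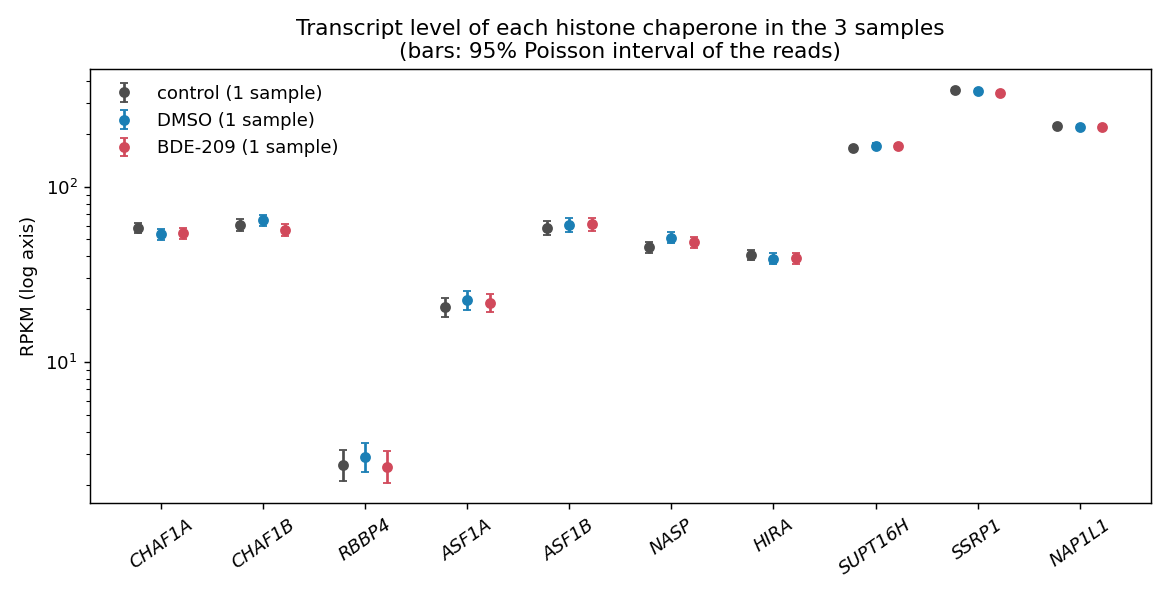
RPKM of the 10 transcripts (log axis) in the control, DMSO and BDE-209 samples, 1 sample each, and bars are 95% Poisson intervals of the reads behind each value. The levels span from 2.53 RPKM (RBBP4 in BDE-209) to 353 RPKM (SSRP1 in the control), and within each gene the 3 points lie close together.

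The comparison of BDE-209 with DMSO asks what the flame retardant adds to its solvent. In this comparison 0 of 10 factors were 2-fold apart, and 0 of 10 had a higher value at least 25% above the lower one. The background was 2.22% of 15573 transcripts at 2-fold and 17.5% at a 25% difference, and 3.13% at a 25% difference among transcripts with a mean of at least 10 RPKM, a level that 9 of the 10 factors reached. The ratios ran from 0.882 to 1.01, that is, from 11.8% lower to 1.4% higher in BDE-209, and 4 factors were above 1 and 6 below it. Their median log2 ratio was -0.03, against 0 over the 15573 transcripts, and their median size, without sign, was 0.033 against 0.115. The sizes are not matched for level, and the part of read depth in this gap was not tested. Scaled to the uniquely mapped reads that the study lists, which shifts every log2 ratio by -0.039, 0 of the 10 were above 1, so no direction can be read from the split of 4 and 6.

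CHAF1B was the factor with the clearest gap between these samples. Its 56.8 RPKM in BDE-209 against 64.4 in DMSO gave a log2 ratio of -0.18, with a 95% counting interval from -0.34 to -0.02. An exact binomial test of the reads of the 2 libraries, two-sided, which compares these libraries and not the conditions, gave an unadjusted p of 0.025 and an adjusted p of 1 over all 24608 transcripts with a read. CHAF1B thus did not pass, and the level in BDE-209 was 0.936 of the control (interval 0.837 to 1.05). RBBP4 had the same ratio, 0.882, but its 94 and 109 reads left an interval from 0.662 to 1.17. CHAF1A was at a ratio of 1.01 (0.921 to 1.12), so the CAF-1 subunits showed no common shift that these reads could resolve.

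For the other factors the counting intervals between BDE-209 and DMSO were mostly narrow, but they leave out the choice of scaling and the spread between cultures. NAP1L1 had a ratio of 1.00 with an interval from 0.964 to 1.04. SUPT16H had 0.989 (0.945 to 1.04) and SSRP1 0.969 (0.930 to 1.01), so at the recovered totals both FACT subunits lay close to their DMSO values. Scaled to the uniquely mapped reads, the log2 ratio of SSRP1 was -0.08 instead of -0.04. That shift of -0.039 is not small beside its counting interval, from -0.10 to 0.01. HIRA had 1.01 (0.910 to 1.12), ASF1B 1.01 (0.891 to 1.15), NASP 0.938 (0.848 to 1.04) and ASF1A 0.966 (0.811 to 1.15). In all, 8 of the 10 intervals lay inside a 25% difference either way and 10 of 10 inside 2-fold. The exact binomial test called 0 of 10 factors after adjustment and 1 of 10, CHAF1B, before it. Its background was 0.0569% of all transcripts with a read adjusted and 4.17% unadjusted.

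DMSO against the control gives the solvent by itself. Here 0 of 10 factors differed by 25% or more, where 18.8% of the transcripts with a mean of at least 1 RPKM were, and 0 of 10 were 2-fold apart, with a background of 2.16%. At a mean of at least 10 RPKM the share past a 25% difference was 4.17%. NASP had the widest gap, with 51.2 RPKM in DMSO and 45.0 in the control. That is a ratio of 1.14 (interval 1.03 to 1.26), with p = 0.012 in the exact binomial test and an adjusted p of 0.51 over 24589 transcripts, so it did not pass either. Both other listed NASP rows had values on the same side, with log2 ratios of 0.16 for NM_001195193 and 0.26 for NM_152298, though the rows share exons and are not independent. CHAF1A was lower in DMSO, 53.4 against 58.3 RPKM, at a ratio of 0.915 (0.833 to 1.01, exact binomial p = 0.064, adjusted p = 0.91). The FACT subunits and NAP1L1 differed least here, with ratios of 1.03 for SUPT16H (0.985 to 1.08), 0.996 for SSRP1 (0.957 to 1.04) and 0.986 for NAP1L1 (0.949 to 1.02). The exact binomial test called 0 of 10 factors after adjustment and 1 of 10 before it, with a background of 0.403% and 5.88%. The median log2 ratio of the factors was 0.047, against 0.006 for all transcripts, with 6 of 10 above 0 (8 of 10 when scaled to the uniquely mapped reads).

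In BDE-209 against the control, which sums solvent and flame retardant and shares a sample with each of the other comparisons, the 10 ratios lay between 0.928 and 1.07. Of the 10 factors, 0 reached a 25% difference (background 18.6%, or 4.28% at a mean of at least 10 RPKM) or a 2-fold difference (background 2.08%). The exact binomial test called 0 of 10, adjusted or not, with a background of 0.515% adjusted and 6.06% unadjusted. The lowest ratio belonged to CHAF1A (0.928, interval 0.845 to 1.02) and the highest to NASP (1.07, 0.962 to 1.18). SSRP1, with the most reads per length, was at 0.965 (0.927 to 1.01, exact binomial p = 0.091, adjusted p = 0.95). ASF1B was at 1.05 (0.922 to 1.19), ASF1A at 1.06 (0.888 to 1.27) and HIRA at 0.961 (0.868 to 1.06).

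**Figure D3:**
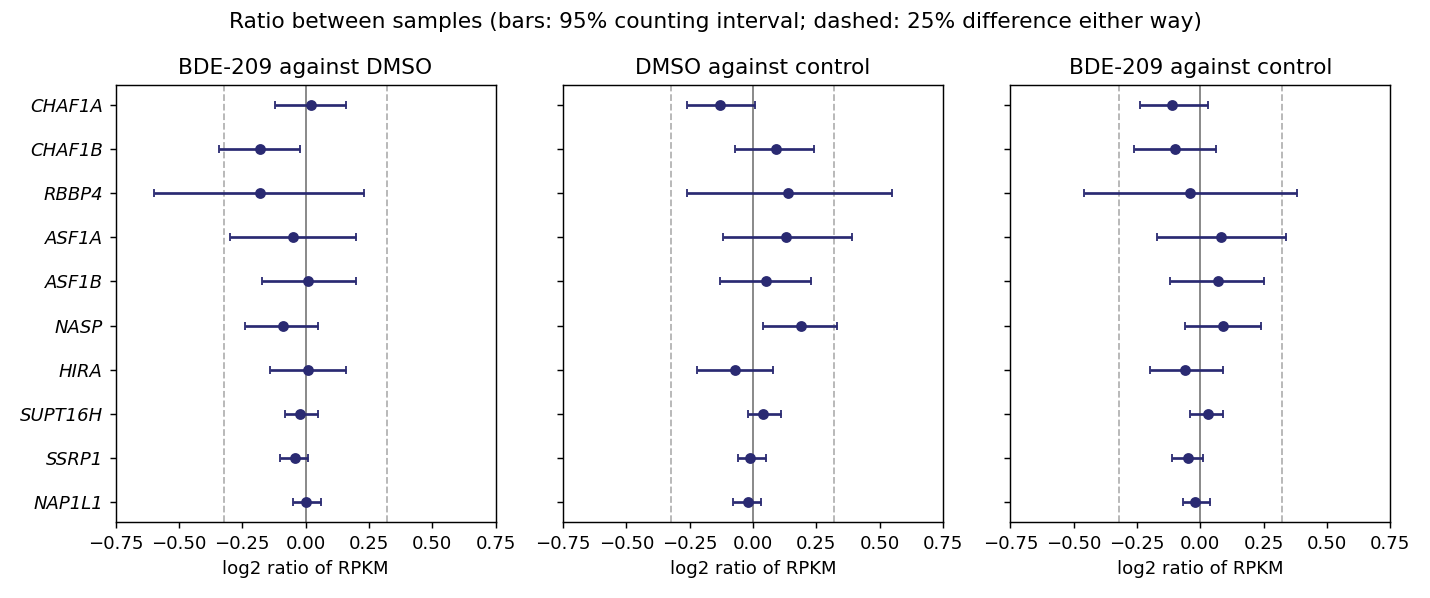
Log2 ratio of RPKM of each factor in the 3 comparisons, with the 95% counting interval of the reads of the libraries compared, and dashed lines mark a 25% difference either way. CHAF1B in BDE-209 against DMSO (-0.18) and NASP in DMSO against control (0.19) are the 2 of 30 intervals that exclude 0, and neither passed the exact binomial test after adjustment.

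Over the 3 samples together, the highest value over the lowest ran from 1.01 for NAP1L1 and 1.03 for SUPT16H to 1.14 for NASP, with a median of 1.07, against a median of 1.15 over transcripts with a mean of at least 1 RPKM and a value in every sample. That comparison is not matched for level, most of the factors are abundant, and the part of depth in their range was not tested. By RPKM, the highest value was in the control for 4 factors (CHAF1A, HIRA, SSRP1, NAP1L1), in DMSO for 5 (CHAF1B, RBBP4, ASF1A, NASP, SUPT16H) and in BDE-209 for 1 (ASF1B). Within CAF-1, CHAF1B and RBBP4 were both highest in DMSO and lowest in BDE-209, while CHAF1A was highest in the control and lowest in DMSO. The FACT subunits had their highest values in different samples. These places depend on the read total and mostly rest on gaps within counting error. Scaled to the study's uniquely mapped reads, DMSO against control had log2 ratios of 0.04 for SSRP1 and 0.02 for NAP1L1. BDE-209 against DMSO had -0.02 for ASF1B and for CHAF1A. On that scale SSRP1, NAP1L1 and ASF1B were highest in DMSO, like SUPT16H, and CHAF1A was lowest in BDE-209. Counting intervals that exclude no difference were found for 5.85% of the 15573 transcripts between BDE-209 and DMSO, 8.56% between DMSO and control and 9.05% between BDE-209 and control, and for 1, 1 and 0 of the 10 factors.

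**Figure D4:**
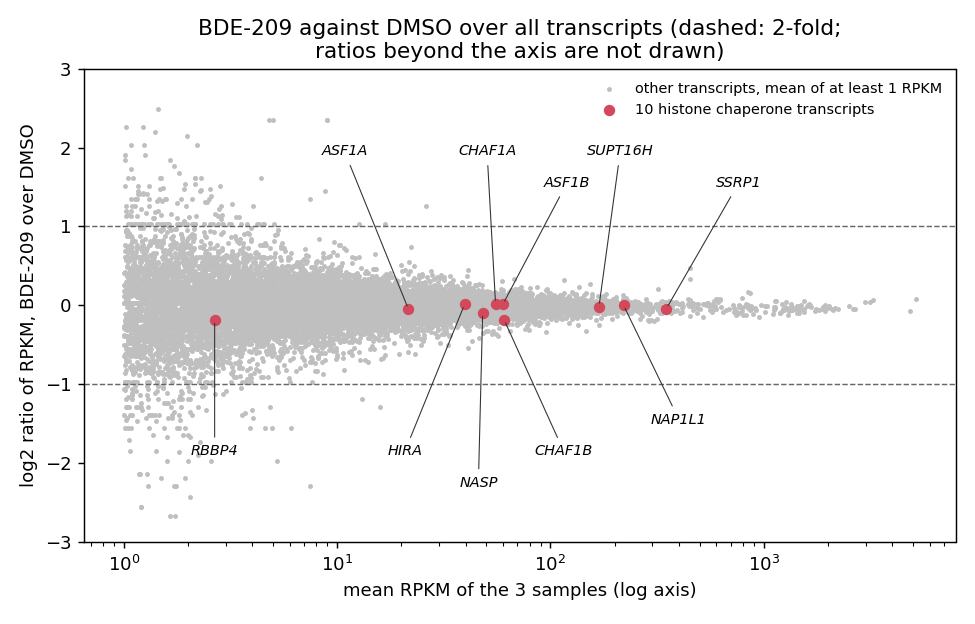
Log2 ratio of RPKM between BDE-209 and DMSO against the mean RPKM of the samples (log axis) for transcripts with a mean of at least 1 RPKM (grey) and for the 10 factors (red). The grey cloud narrows toward high levels, where 9 of the 10 factors lie, and the factors sit between -0.18 and 0.02.

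The ratio of partners within a sample needs no read total. CHAF1A over CHAF1B was 0.962 in the control (95% counting interval 0.87 to 1.06), 0.83 in DMSO (0.75 to 0.918) and 0.954 in BDE-209 (0.858 to 1.06). The DMSO value was the lowest, and its interval overlapped with those of both other samples. Overlap of intervals is no test of a difference, and these ratios were not tested between samples. ASF1B over ASF1A was 2.84 (2.44 to 3.32), 2.68 (2.31 to 3.12) and 2.8 (2.41 to 3.27), and no interval reached 1. SUPT16H over SSRP1 was 0.47 (0.45 to 0.49), 0.486 (0.466 to 0.507) and 0.496 (0.475 to 0.518), again with overlapping intervals. RBBP4 over CHAF1A was 0.0446, 0.0537 and 0.0467. The level of SUPT16H below SSRP1 depended on how length is counted. Per window found only at the gene's own locus (33.8% of windows for SUPT16H and 77.2% for SSRP1), the ratio was 1.13 in the control, 1.17 in DMSO and 1.19 in BDE-209. This scale treats reads from every window with a copy within 2 mismatches as lost, which was not tested. Of the SUPT16H windows 55.8% had such a copy, but 13.8% had one without a mismatch, so the order of the FACT subunits is not settled. On the same scale RBBP4 over CHAF1A was 0.0565 in the control. For RBBP4 this scale rests mainly on noncoding windows. Only 3.9% of its coding windows, against 65.4% of all its windows, were found only at its own locus. The part of the pseudogene copies in its low value was thus not tested by this ratio.

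**Figure D5:**
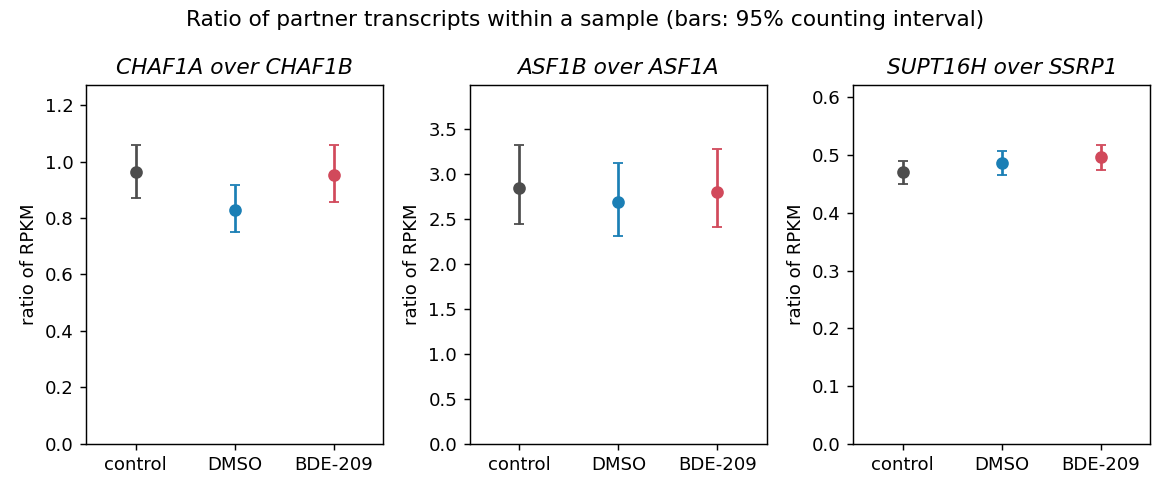
RPKM of CHAF1A over CHAF1B, ASF1B over ASF1A and SUPT16H over SSRP1 within each sample, with 95% counting intervals and each vertical axis starting at 0. In each panel the 3 intervals overlap, and ASF1B over ASF1A stays between 2.68 and 2.84.

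NASP, NAP1L1 and RBBP4 are listed in several rows, and the other 7 factors in 1 row each. For NAP1L1 the second row, NM_139207, had 239, 234 and 234 RPKM in control, DMSO and BDE-209, close to the first. For RBBP4, NM_001135255 had 1.87, 2.0 and 1.89 RPKM and NM_001135256 had 4, 8 and 9 reads, so no row of the gene was well covered. For NASP, the rows NM_002482 and NM_152298 differ in recovered length by 1017 bases, which is the length of its exon 6 (chr1:46072993-46074009, GRCh37). The longer row had 534, 589 and 537 more reads than the shorter one in control, DMSO and BDE-209. If each read is counted in every row that holds it, these 1017 bases carried 525, 579 and 528 reads per kb, against 81.4, 96.3 and 89.8 reads per kb on the 2284 bases of the shorter row. Under this assumption the density over this exon was 6.45, 6.01 and 5.88 times that of the rest. Per window found only at the own locus it was 10.1, 9.39 and 9.19 times that of the rest. Of its 49-base windows 73.6% were found elsewhere, against 43.7% in the other exons of the gene. The third row, NM_001195193, had 566, 623 and 567 reads on 3109 bases, against 720, 809 and 742 on 3301 bases for NM_002482. That gap in reads is also large for a small gap in length. The assumption behind the exon densities was not tested, so they may reflect the way reads were shared between rows. Reads summed over all rows came to 119.8% to 119.9% of the recovered totals, so some reads were counted in more than 1 row.

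A list of 36 other genes of histone storage, transport and deposition, and of chromatin remodelling and replication, was read for comparison, with the highest row per gene. All 36 had a value in at least 1 sample and 34 a mean of at least 1 RPKM. Of the 36, 0 passed the exact binomial test after adjustment in any comparison. A difference of at least 25% was seen for 1 gene between BDE-209 and DMSO, 4 between DMSO and control and 2 between BDE-209 and control, each time on the higher side, and for 0 on the lower side. The background in either direction was 17.5%, 18.8% and 18.6% at a mean of at least 1 RPKM. It was 3.13%, 4.17% and 4.28% at a mean of at least 10 RPKM, a level that most of the 36 reached. DAXX and NAP1L5, with means of 0.508 and 0.0717 RPKM, lay below both filters. The median log2 ratio of the 36 genes was 0 for BDE-209 against DMSO, 0.02 for DMSO against control and 0.02 for BDE-209 against control. The counting interval excluded no difference for 3 genes between BDE-209 and DMSO, 5 between DMSO and control and 4 between BDE-209 and control, with a background of 5.85%, 8.56% and 9.05%. The most abundant were NCL (nucleolin, 839, 819 and 830 RPKM in control, DMSO and BDE-209), SET (397, 399 and 405 RPKM), NPM1 (nucleophosmin, 297, 300 and 277 RPKM), the acidic H3 and H4 binder ANP32B (278, 272 and 288 RPKM) and RBBP7. NPM1 in BDE-209 against DMSO had a log2 ratio of -0.11 (interval -0.20 to -0.02, exact binomial adjusted p = 1). Past a 25% difference with an interval that excluded no difference was 1 gene, CDAN1, which codes for a binder of ASF1. It had 118 reads in DMSO and 86 in the control, a ratio of 1.39 (log2 interval 0.06 to 0.89, exact binomial adjusted p = 0.66). The genes counted as 2-fold apart, named after their values were seen, rested on few reads, since DAXX had 9 reads in BDE-209 and 4 in the control, and NAP1L5 had 1 read in each of DMSO and BDE-209 and 0 in the control. BAZ1A, a chromatin remodeller subunit, had the smallest adjusted p of the list, with 52.1 RPKM in DMSO and 59.1 in the control, a log2 ratio of -0.18 (-0.28 to -0.08, exact binomial adjusted p = 0.084). TONSL, a reader of new H4 histones at the replication fork, had 22.1 RPKM in DMSO and 18.1 in the control, a log2 ratio of 0.29 (0.09 to 0.48, exact binomial adjusted p = 0.31).

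Promoter windows of 300 bases around the start of all 10 genes, from RefSeq on GRCh38.p14, were searched on either strand for short motifs. The E2F-type motifs TTTGGCGC, TTTCGCGC and TTTCCCGC were found in 1 of the 10, HIRA, which held TTTCCCGC, and any of them in 2.7% of 35116 promoters. CCAAT was found in 6 of the 10 (CHAF1A, RBBP4, ASF1A, ASF1B, NASP and SUPT16H) and in 34.6% of all promoters. Such matches are descriptions of the sequence, and the absence of these letters says nothing of the factors that bind there.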

How the data were processed

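PolyA RNA of 3 HEK293T cultures, 1 per condition, was read from one end over 49 bases. The authors placed the reads on hg19 with SOAPaligner, with up to 2 mismatches, discarded those with several positions, and deposited for each sample the RPKM of RefSeq transcripts. A transcript that a list lacks was taken as 0. How reads shared by isoforms were counted is not given in the sources used here.

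Conditions were taken from the sample titles. Symbols were paired through RefSeq for 96.0% of transcripts. The members and lists were chosen with earlier results of these data known. Read totals were recovered as the numbers that turn RPKM values of single reads into whole lengths, and read counts as the smallest whole numbers that fit a transcript's values. They are lower bounds, so an error in the recovered counts can only make the counting intervals too wide. Reads that are not independent could make them too narrow, which was not examined. The recovered lengths lay within 10% of the GENCODE transcript for 8 factors and not for CHAF1B (2297 against 4466 bases) and NAP1L1 (5125 against 13159).

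Log2 ratios were taken from RPKM with no constant added. Intervals of ratios are 95% Clopper-Pearson intervals, intervals of levels are exact Poisson intervals, and both cover counting error only. The exact binomial test compared the reads of 2 libraries at the split of the recovered totals, two-sided, with Benjamini-Hochberg adjustment over all transcripts with a read and a threshold of 0.05. The fold of 2 is that of the study's methods. Its NOISeq probability was not computed, since it rests on simulated noise within 1 sample. The background was transcripts with a mean of at least 1 RPKM. Named were the 10 factors, their other rows, and of the 36 other genes those past a 25% difference with an interval excluding no difference and the 5 with the highest mean. NPM1's ratio, BAZ1A, TONSL, DAXX and NAP1L5 were added after their values were seen.

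Windows of 49 bases were matched to GRCh37 without gaps, so windows over a splice junction have no match at the gene itself. Scripts ran under Python 3.11.15 with scipy 1.17.1, numba 0.67.0, numpy 2.4.6, matplotlib 3.10.9 and pandas 2.3.3, and were tested on simulated lists. Protein sequences were not used here.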

Additional observations from a re-analysis of the deposited data

How the results depend on the processing

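Adding 0.5 or 1 to each RPKM, rescaling to a median ratio of 1, scaling to the study's uniquely mapped reads and summing all rows of a gene gave 150 recomputed log2 ratios of the factors, and 150 lay within the counting interval of the value reported. This outcome was largely set beforehand and is no check of the ratios. The scalings shift a log2 ratio by at most 0.042, the constants are small beside most levels, and summing changes nothing for the 7 factors with 1 row. The counts of factors past 2-fold (also at 1.5-fold) and past a 25% difference stayed at 0 in each of these settings. The exact binomial test was run with the reads split by the median ratio, by the uniquely mapped reads and over transcripts with a mean of at least 1 RPKM, and it called 0 of 10 factors each time. Scaling to the uniquely mapped reads moved the median log2 ratio of the factors from -0.03 to -0.069 for BDE-209 against DMSO and from 0.047 to 0.088 for DMSO against control. For BDE-209 against control, summing the rows moved it from -0.028 to 0.002, across 0.

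The background depends on the filter on low values. Without one, 20.2%, 20.0% and 20.3% of transcripts were past 2-fold for BDE-209 against DMSO, DMSO against control and BDE-209 against control, and 39.3%, 40.2% and 40.4% past a 25% difference. At a mean of at least 10 RPKM these were 0.062%, 0.0868% and 0.062%, and 3.13%, 4.17% and 4.28%. RPKM of RBBP4 over CHAF1A, by sums of rows, was 0.0784, 0.0952 and 0.0861 in control, DMSO and BDE-209. The scale per window found only at the own locus was chosen after seeing the data, and on it SUPT16H lay above SSRP1, and NASP above CHAF1A and ASF1B, in each sample. Whether reads from windows with a copy within 2 mismatches were in fact lost was not tested. Read counts from RefSeq transcript lengths were not run. No paired analysis was possible because each condition has 1 sample. For RBBP4 the counting interval extended on average up to 31.3% to each side of a ratio, so smaller differences were not detectable at this depth.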
